A study of Mus musculus with 6 samples.

Results

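The angiopoietin family was described in RNAseq of immortalized mouse pancreatic fibroblasts. Its members were taken by gene symbol: the angiopoietins Angpt1, Angpt2 and Angpt4 and the angiopoietin-like genes Angptl1, Angptl2, Angptl4, Angptl6 and Angptl7. The family was selected because of the large difference of Angptl7 between the 2 groups. Every value of that comparison given for a member is therefore a description, and no p is given for a member. A member counted among the called genes is only placed among all tested genes by this, and the call is not read as a test of the member. Of the 8 genes, 7 were found among the 14831 genes of the counts and all 7 passed the filter on low counts, which left 14289 genes. Angptl1 and the further family member Angptl8 were not analysed here, since no row of the counts carries their symbols or identifiers.

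The fibroblasts were cultured from the pancreas of adult mice of mixed strain that carry floxed Gli alleles, and were immortalized. Per the study's methods, control lines received Ad5 CMV-eGFP and Lenti dsRed, whereas knockout lines received Ad5 CMV-eGFP together with Ad5 CMV-Cre, in which the CMV promoter drives Cre in any infected cell. Infected cells were then sorted by flow cytometry, and the methods add that recombination was checked in them at the RNA and protein level, by qPCR and western blot. The paper reports that these checks showed the deletion. It also reports that the knockout lines did not respond to Hedgehog stimulation, while their control lines did. Which of these lines were sequenced is not stated there. The labels give the genotype WT for 3 libraries and Gli2-/-;Gli3-/- for 3, each made from polyadenylated RNA of a well of its own, grown to confluence in DMEM with calf serum and Pen/Strep. No source used here says that the wells of a group came from separately derived lines or mice, so the spread between libraries may be that of culture and library preparation alone, and whether lines or clones add to it is not known here. In this design 3 libraries against 3 allow no two-sided exact permutation p below 0.1. Gli2 had between 809 and 944 counts in the WT-labelled libraries and between 1926 and 2316 in the KO-labelled ones, and Gli3 had 392 to 416 and 1404 to 1637. Both are higher where the labels name a knockout, and counts over a whole gene do not show whether a floxed exon was removed. The text therefore names the groups by label only, WT-labelled and KO-labelled, and no direction is firmer than those labels.

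Libraries held between 31728420 and 41035931 counts on genes, and 3 counts correspond to between 0.0720 and 0.0957 CPM, the count scaled to the size of the library. Between wells, the biological coefficient of variation shared by all genes was 3.74%. Of the 14289 genes tested with edgeR's quasi-likelihood test, 2531 (17.7%) were called. A call needs an adjusted p (Benjamini-Hochberg) under 0.05 together with a 1.5-fold difference or more, and 1660 of the called genes were higher (11.6%) and 871 lower in the KO-labelled libraries. Fibroblast identity was checked with 11 markers. Of these, 9 were in the counts, with Pdpn and Fap having no row, and their summed level was 44834 to 47247 CPM in the WT-labelled libraries and 36784 to 38533 CPM in the KO-labelled ones. Of the 8 markers tested, 5 were called lower in the KO-labelled libraries (Col3a1, Pdgfra, Pdgfrb, Dcn and Lum), 0 were called higher, and Thy1 was at 0.0525 and 0.390 CPM. Over all genes, 871 of 14289 were called lower. Mean Lum was 11.7 CPM in the WT-labelled and 0.240 CPM in the KO-labelled libraries, and mean Dcn 2643 and 905 CPM, which the summed level does not show. In bulk RNA, fewer cells of a type and less RNA per cell cannot be told apart.

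Angiopoietins are secreted ligands of the endothelial receptor tyrosine kinase Tie2, the product of Tek. ANGPT1 activates the receptor and stabilizes vessels, ANGPT2 counteracts or weakly activates it depending on context, and ANGPT4 is a further ligand. Angiopoietin-like proteins share the coiled coil and the fibrinogen-like domain of the angiopoietins but do not bind Tie2. Among them, ANGPTL4 inhibits lipoprotein lipase and is a target of PPAR factors and of hypoxia, ANGPTL2 is a stromal and adipose factor that signals through integrins, ANGPTL6 is a growth factor with metabolic actions, and ANGPTL7 is a matrix-associated protein best known from the cornea and the trabecular meshwork of the eye.

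Promoter sequence is shown for the member with the largest difference, Angptl7, for the one with the next largest, Angptl6, and for Angpt4, whose groups did not differ beyond their spread. Each line holds the 250 bases before the transcription start in RefSeq on GRCm38.p6, 5' to 3' on the strand of the gene: chr4:148500463-148500712 (minus strand) for Angptl7, chr9:20879711-20879960 (minus strand) for Angptl6 and chr2:151910957-151911206 (plus strand) for Angpt4. Capitals mark a motif match.
Angptl7: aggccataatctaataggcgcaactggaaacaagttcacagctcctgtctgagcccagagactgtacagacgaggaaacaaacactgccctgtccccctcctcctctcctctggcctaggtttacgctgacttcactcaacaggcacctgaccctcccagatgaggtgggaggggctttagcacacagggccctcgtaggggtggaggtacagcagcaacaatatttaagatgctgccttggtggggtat
Angptl6: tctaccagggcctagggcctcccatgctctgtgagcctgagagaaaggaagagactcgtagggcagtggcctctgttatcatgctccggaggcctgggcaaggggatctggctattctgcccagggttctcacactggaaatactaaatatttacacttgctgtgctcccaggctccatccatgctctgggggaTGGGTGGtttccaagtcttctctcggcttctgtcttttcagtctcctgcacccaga
Angpt4: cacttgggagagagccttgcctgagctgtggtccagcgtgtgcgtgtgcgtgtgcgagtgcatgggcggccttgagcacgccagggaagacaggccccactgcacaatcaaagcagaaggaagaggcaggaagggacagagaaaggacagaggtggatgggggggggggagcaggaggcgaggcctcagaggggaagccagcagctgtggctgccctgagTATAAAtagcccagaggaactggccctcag
The windows were searched on both strands for the GLI consensus TGGGTGGTC, for its first 7 letters TGGGTGG, for the TATA box letters TATAAA and for the hypoxia element core ACGTG. The second motif is contained in the first and no other pair overlaps. Over all 32851 RefSeq promoters, windows of the same length held them in 0.225%, 8.11%, 12.4% and 16.6% of cases. TGGGTGG was found in the Angptl6 window, from 56 to 50 bases before the start, and TATAAA in the Angpt4 window, from 30 to 25 bases before it. None of these letters was found in the windows of Angptl7 and Angptl2, or in that of Angptl1. RefSeq windows were at hand for these 5 members and not for Angpt1, Angpt2 and Angptl4. A match is a run of letters and was not tested as a binding site, and the motifs were chosen after the sequences had been seen. The GC content was 54.4% for Angptl7, 54.8% for Angptl6 and 62.4% for Angpt4, with a median of 52.4% over all promoters.

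Angptl7 had the largest difference among the members. It had 5, 15 and 13 counts in the WT-labelled libraries and 1100, 1408 and 1146 in the KO-labelled ones. In CPM this is 0.160, 0.448 and 0.407 against 31.1, 33.8 and 34.7. All 3 KO-labelled libraries are far above all 3 WT-labelled ones, and the WT-labelled library with 5 counts is the lowest of the 6. The means were 0.338 ± 0.156 and 33.2 ± 1.90 CPM (SD, n = 3 each), which puts the log2 fold change at 6.59 (standard error, SE, 0.14), or 96.3-fold. This SE is derived from the F statistic of the fit and understates the error at so few WT-labelled counts. Leaving out 1 library at a time moved the log2 fold change between 6.26 and 6.85. Among all tested genes, 50 had a larger rise and 57 a larger absolute change. The size of the fold is set by the few counts of the WT-labelled libraries, whose coefficient of variation was 46.1%, where counting error alone gives 30.2% at this mean. In the KO-labelled libraries the coefficient of variation was 5.72%. Mesothelial markers, described further on, were also higher in the KO-labelled libraries. Their summed level was 22.6 to 25.6 CPM in the WT-labelled libraries and 291 to 293 CPM in the KO-labelled ones. Of all tested genes, 11.6% were called higher in the KO-labelled libraries.

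Angptl6 had 38, 35 and 28 counts in the WT-labelled libraries and 157, 170 and 132 in the KO-labelled ones, or 1.21, 1.04 and 0.877 CPM against 4.43, 4.08 and 4.0 CPM. The groups do not overlap, and neither group varies more than counting alone would give, with coefficients of variation of 16.1% and 5.55% against 17.2% and 8.08%. With means of 1.04 ± 0.168 and 4.17 ± 0.231 CPM (SD, n = 3 each), the difference on the log2 scale was 1.99 (SE 0.14), or 3.98-fold. Angptl7 and Angptl6 are thus the 2 of 7 members among the called genes, where the share over all genes was 17.7%. Both were called higher in the KO-labelled libraries, as were 11.6% of all tested genes. Since the family was selected on this comparison, nothing is read from that share.

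Angptl4, the lipoprotein lipase inhibitor, had 677, 633 and 606 counts in the WT-labelled libraries and 1102, 1201 and 941 in the KO-labelled ones. In CPM its WT-labelled libraries had 21.6, 18.9 and 19.0 and the KO-labelled ones 31.1, 28.8 and 28.5. The groups do not overlap, and the gap between them is wider than the spread within either. With means of 19.8 ± 1.54 and 29.5 ± 1.43 CPM (SD, n = 3 each), the difference on the log2 scale was 0.57 (SE 0.06), or 1.49-fold. The limit of 1.5-fold lies at 0.58 on the log2 scale, within 1 SE of the value, and leaving out 1 library at a time moved Angptl4 between 0.53 and 0.64, on both sides of the limit. It lay above the limit without the WT-labelled replicate 1 (0.64), without the KO-labelled replicate 2 (0.59) or 3 (0.60), and with upper-quartile (0.63) or total-count scaling (0.61).

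Angptl2 was the member with the most counts, 1354, 1526 and 1542 in the WT-labelled libraries and 1858, 2070 and 1777 in the KO-labelled ones. Its CPM values of 43.2, 45.6 and 48.3 against 52.5, 49.7 and 53.8 do not overlap, but the highest WT-labelled library and the lowest KO-labelled one are close. The means were 45.7 ± 2.55 and 52.0 ± 2.12 CPM (SD, n = 3 each), which puts the log2 fold change at 0.18 (SE 0.05), or 1.14-fold.

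The 3 angiopoietins differed less or with a larger error. Angpt4 had 269, 230 and 235 counts in the WT-labelled libraries and 258, 326 and 260 in the KO-labelled ones. Its 8.58, 6.87 and 7.36 CPM against 7.29, 7.82 and 7.88 CPM overlap, with a WT-labelled library both the highest and the lowest of the 6. The log2 fold change of 0.01 (SE 0.09) changed sign in 4 of 14 alternative fits, between -0.06 and 0.11. Angpt1 had 25, 19 and 16 counts in the WT-labelled libraries and 17, 17 and 13 in the KO-labelled ones, or 0.798, 0.567 and 0.501 CPM against 0.480, 0.408 and 0.394 CPM. Its groups do not overlap in CPM, with the lowest WT-labelled library just above the highest KO-labelled one, and the log2 fold change was -0.54 (SE 0.27). Angpt2 had 8, 7 and 10 counts in the WT-labelled libraries and 14, 15 and 6 in the KO-labelled ones, or 0.255, 0.209 and 0.313 CPM against 0.395, 0.360 and 0.182 CPM. One KO-labelled library was the lowest of the 6 and the other 2 were the highest, and the log2 fold change was 0.29 (SE 0.37). Both genes had 6 to 25 counts per library, and a difference as large as that of Angptl4 would lie within 2 SEs for Angpt2. In all, 5 of 7 members had no overlap between the groups, where 64.2% of all tested genes had none.

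**Figure D1:**
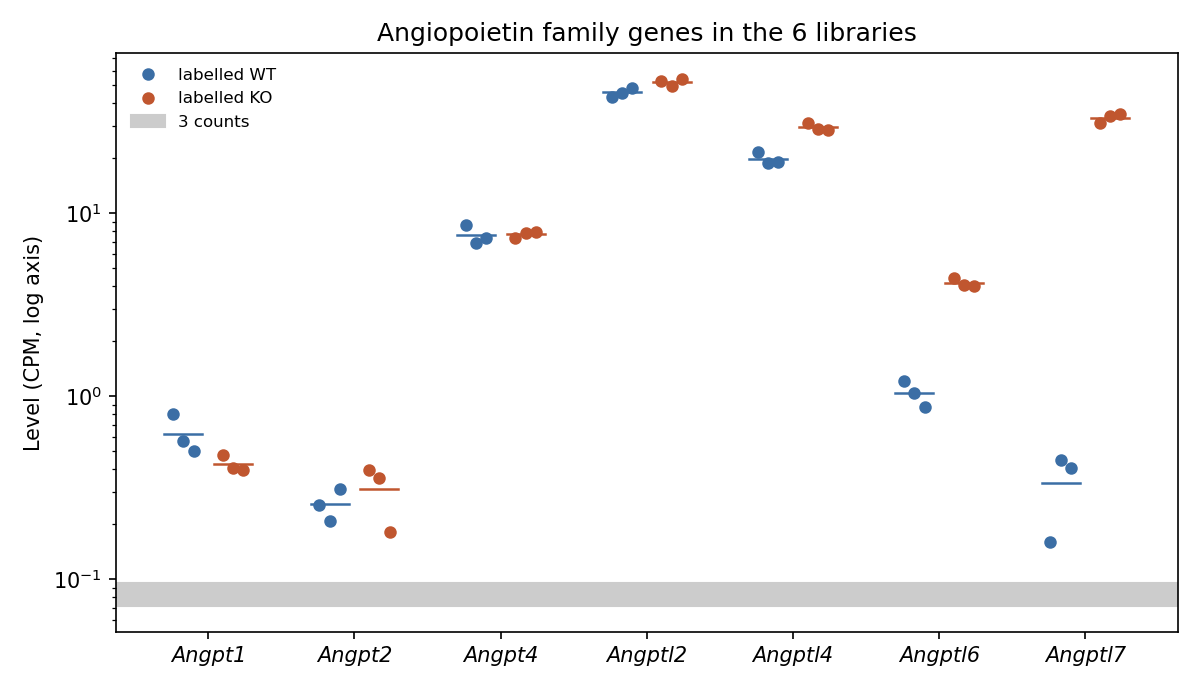
Level in CPM (log axis) of the 7 members, with 1 point for each library, a line at each group's mean and the range of 3 counts shaded. The Angptl7 points of the groups lie apart by a mean of 0.338 against 33.2 CPM, those of Angptl6 by 1.04 against 4.17 CPM, and those of Angpt2 and Angpt4 overlap.

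Levels were compared between members per kilobase of exon, as CPM divided by the summed length of all annotated exons. In the WT-labelled libraries the order was Angptl2 at 7.27 ± 0.406, Angptl4 at 5.60 ± 0.434, Angpt4 at 3.26 ± 0.378, Angptl6 at 0.660 ± 0.106, Angptl7 at 0.157 ± 0.0723, Angpt1 at 0.120 ± 0.0299 and Angpt2 at 0.0702 ± 0.0142 CPM per kilobase (SD, n = 3). Angptl7 and Angpt1 overlapped in their libraries, at 0.0740 to 0.208 and 0.0963 to 0.153, and all other neighbours in that order did not. In the KO-labelled libraries, Angptl7 stood first at 15.4 ± 0.880 CPM per kilobase. Angptl4 at 8.33 ± 0.403 and Angptl2 at 8.27 ± 0.337 followed and overlapped. Angpt4 at 3.28 ± 0.140 and Angptl6 at 2.64 ± 0.146 came next without overlap, and Angpt2 at 0.0847 ± 0.0310 and Angpt1 at 0.0821 ± 0.00889 overlapped at the end. With the length of the longest transcript in place of all exons, Angptl2 was at 12.8 and 14.6 CPM per kilobase in the 2 groups, and its KO-labelled libraries (14.0 to 15.1) then overlapped those of Angptl7 (14.4 to 16.1).

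The summed level of the 7 genes was 17.1 ± 0.576 CPM per kilobase in the WT-labelled libraries and 38.1 ± 0.581 in the KO-labelled ones (SD, n = 3 each), a ratio of 2.22. Without Angptl7 the sums were 17.0 and 22.7 CPM per kilobase. Angptl2 made up 42.5% of the sum in the WT-labelled libraries, Angptl4 32.7%, Angpt4 19.0% and Angptl6 3.85%, and the other 3 genes 0.925% or less each. In the KO-labelled libraries, Angptl7 made up 40.4% ± 1.88, Angptl4 21.9%, Angptl2 21.7%, Angpt4 8.62%, Angptl6 6.93%, and Angpt1 and Angpt2 0.216% and 0.223%. By the longest transcript the Angptl7 share was 34.2% and that of Angptl2 32.4%. Against all 14822 genes with an annotated length, Angptl7 moved from the 8.69th percentile of level per kilobase in the WT-labelled libraries to the 78.6th in the KO-labelled ones, and Angptl6 from the 21.6th to the 38.2nd. Angptl2 and Angptl4 lay between the 54.2nd and the 63.9th percentile in both groups, Angpt4 at the 42.9th and 42.2nd, Angpt1 at the 6.90th and 3.11th, and Angpt2 at the 4.24th and 3.18th.

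**Figure D2:**
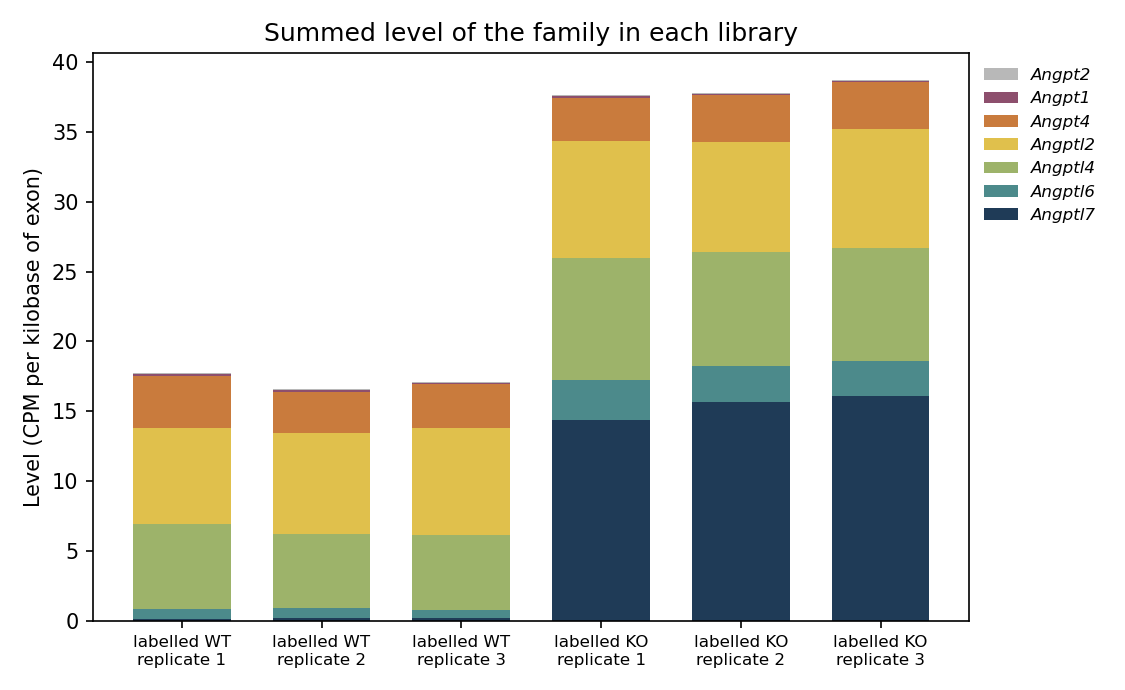
Stacked level in CPM per kilobase of exon of the 7 members in each of the 6 libraries. The bars of the KO-labelled libraries reach 37.7 to 38.7 against 16.6 to 17.7 in the WT-labelled ones, and Angptl7 fills 40.4% of them on average.

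The annotated positions of the members were read from GENCODE M21 on GRCm38. Angptl7 (chr4:148495183-148500460, minus strand, 5 exons) lies wholly within Mtor, the kinase gene of the opposite strand, and shares no exonic base with it. Angptl2 (chr2:33216069-33247717, plus strand) lies within Ralgps1 and Angpt2 (chr8:18690263-18741562, minus strand) within Mcph1, each on the opposite strand and without shared exonic bases. Angptl1 lies within Ralgps2. All 4 of the genes that hold a member are in the counts, and the sources used here do not state whether reads were counted by strand. Without strand, reads from an intron of such a gene could be counted for the member inside it. The few WT-labelled counts of Angptl7 and all counts of Angpt2 are uncertain to that extent, which was not tested. None of these 4 genes was called, where 17.7% of all tested genes were. Mtor had 1410, 1597 and 1555 counts in the WT-labelled libraries and 1466, 1759 and 1580 in the KO-labelled ones, a log2 fold change of -0.11 (SE 0.05, adjusted p = 0.111 by edgeR's quasi-likelihood test). By the same test, Mcph1 had a log2 fold change of 0.19 (SE 0.06, adjusted p = 0.0107) and Ralgps1 of -0.04 (SE 0.07, adjusted p = 0.702). Ralgps2 was at -0.39 (SE 0.06, adjusted p = 7.57e-05). Mcph1 and Ralgps2 thus missed the call by the fold limit only. Mtor was thus in the KO-labelled libraries at 0.928 times its WT-labelled level, and Angptl7 within it at 96.3 times its own.

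Angpt4 (chr2:151911210-151945337, plus strand) and Angptl4 (chr17:33773750-33781830, minus strand) overlap no other annotated gene. Exons of Angptl6 (chr9:20873808-20879727, minus strand) share 265 bases, 16.8% of its exonic length, with A230050P20Rik on the opposite strand, and those of Angpt1 (chr15:42424723-42676977, minus strand) share 737 bases, 14.2%, with Gm17473. Neither neighbour has a row in the counts, and the reads of an overlapping pair cannot be told apart without strand, so the values of Angptl6 and Angpt1 are uncertain to that extent. The RefSeq start of Angptl6, before which its promoter window ends, lies just inside the GENCODE span of the gene. No run of 50 bases in the exons of Angpt2, Angpt4, Angptl2, Angptl4 or Angptl7 occurs in the exons of another annotated gene.

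**Figure D3:**
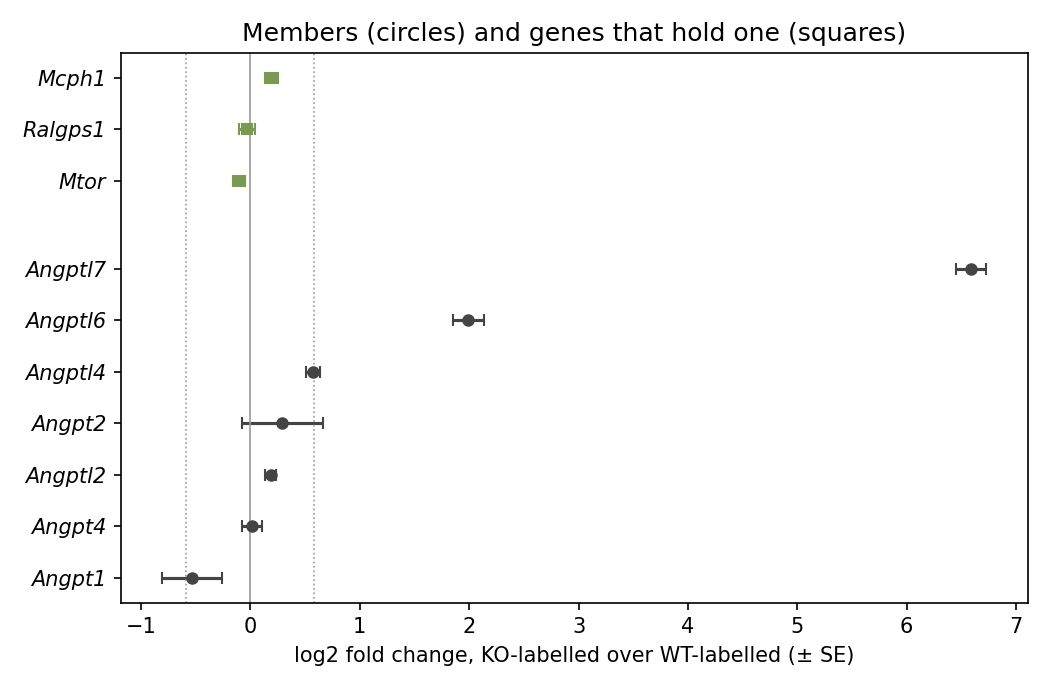
The log2 fold change, KO-labelled over WT-labelled, with its SE, for the 7 members (circles) and the 3 genes that hold a measured member (squares), with dotted lines at 1.5-fold. Angptl7 lies at 6.59 and Angptl6 at 1.99, and Mtor, which holds Angptl7, at -0.11. The SE shown for Angptl7 understates its error, given its few WT-labelled counts.

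Genes through which the family acts were read from lists of receptors, signalling partners, lipases and regulators, and their calls are by the edgeR quasi-likelihood test, adjusted by Benjamini-Hochberg over all tested genes. Of 12 receptors and binding partners 8 were in the counts and tested, and 3 were called higher and 1 lower in the KO-labelled libraries. That is 50% called, where 17.7% of all tested genes were called. The median log2 fold change of this list was 0.11 against 0.00 over all tested genes. The angiopoietin receptor Tek and its partner Tie1 have no row in the counts. Ptprb, the phosphatase that acts on Tie2 in endothelium, had 27, 42 and 39 counts in the WT-labelled libraries and 539, 691 and 526 in the KO-labelled ones. Its log2 fold change was 3.83 (adjusted p = 2.26e-11). The integrin subunit Itgav rose from 270 ± 0.914 to 641 ± 13.5 CPM, a log2 fold change of 1.25 (adjusted p = 2.48e-12), and Svep1, a large matrix protein that binds the TIE1 receptor, from 95.1 ± 12.7 to 171 ± 23.2 CPM, a log2 fold change of 0.85 (adjusted p = 6.92e-06). The integrin subunit Itgb3 fell from 43.8 ± 1.77 to 25.1 ± 0.930 CPM, a log2 fold change of -0.80 (adjusted p = 1.50e-08). The integrin subunits Itga1, Itga5, Itgb1 and Itgb5 were not called, with log2 fold changes between -0.16 and 0.27.

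Downstream of Tie2, 16 of 17 listed genes were tested, and 2 were called higher and 0 lower. That is 12.5% called against 17.7% of all tested genes, with a median log2 fold change of -0.03 for the list. Grb14, an adaptor that binds the activated receptor, rose from 30.3 ± 2.21 to 50.8 ± 2.12 CPM, a log2 fold change of 0.75 (adjusted p = 1.04e-07). Nos3, the endothelial nitric oxide synthase, had 8, 6 and 4 counts against 21, 15 and 14 and rose with a log2 fold change of 1.27 (adjusted p = 0.0102). Nos3 was not called without 1 KO-labelled library, the one with 21 counts. The kinases Akt1 and Akt2 were not called, with log2 fold changes of -0.25 and 0.12.

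Of 16 lipases and genes that handle them, 10 were tested, and 2 were called higher and 0 lower. That is 20% called against 17.7% of all tested genes, with a median log2 fold change of 0.10 for the list. The target of ANGPTL4, lipoprotein lipase (Lpl), was at 45.3 ± 1.15 CPM in the WT-labelled libraries and 50.8 ± 1.59 in the KO-labelled ones, a log2 fold change of 0.17 (SE 0.04) that was not called. Vldlr, a receptor for triglyceride-rich lipoproteins, rose from 9.90 ± 0.442 to 31.2 ± 0.723 CPM, a log2 fold change of 1.65 (adjusted p = 5.95e-11). Pcsk6, a proprotein convertase, rose from 109 ± 6.21 to 330 ± 16.0 CPM, a log2 fold change of 1.59 (adjusted p = 1.92e-11). Gpihbp1, the endothelial anchor of lipoprotein lipase, has no row in the counts.

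All 10 listed regulators of Angptl4 were tested, and 2 were called higher and 0 lower. That is 20% called against 17.7% of all tested genes, with a median log2 fold change of 0.00 for the list. Epas1, which encodes the hypoxia factor HIF-2 alpha, had 2, 4 and 1 counts in the WT-labelled libraries and 102, 106 and 108 in the KO-labelled ones. Its log2 fold change was 5.25 (adjusted p = 1.59e-08), a size set by the few WT-labelled counts. Ppara, which encodes the fatty acid receptor PPAR alpha, rose from 0.812 ± 0.243 to 1.76 ± 0.267 CPM, a log2 fold change of 1.11 (adjusted p = 8.93e-04). Ppard and Pparg had log2 fold changes of -0.18 and 0.12 and Hif1a of 0.25, and none of these was called. Of 10 further target genes of PPAR factors 7 were tested and 0 were called with the fold limit. By an adjusted p under 0.05 alone 6 passed, as did 8391 of all 14289 tested genes. The median log2 fold change of the 7 PPAR targets was -0.08. Cpt1a, the rate-limiting enzyme of fatty acid import into mitochondria, was at 0.15 and Hadha, an enzyme of fatty acid oxidation, at -0.41.

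Of 10 hypoxia target genes 8 were tested, and 2 were called higher and 1 lower. That is 37.5% called against 17.7% of all tested genes, with a median log2 fold change of 0.15 for the list. Car9, a carbonic anhydrase, had 0, 1 and 0 counts in the WT-labelled libraries and 54, 67 and 61 in the KO-labelled ones. Against a floor of 3 counts in each WT-labelled library it was at least 17.8-fold higher. Egln3, an oxygen-sensing prolyl hydroxylase, had 8, 8 and 7 counts against 13, 21 and 13, a log2 fold change of 0.83 (adjusted p = 0.0367), and it lost the call with DESeq2 and without any 1 of 5 of the libraries. Ankrd37 was lower, with a log2 fold change of -0.61 (adjusted p = 3.04e-04), and it fell below the fold limit in 4 alternative fits. The other 5 hypoxia targets were not called, with log2 fold changes of 0.46 for Ndrg1, 0.25 for Slc2a1, 0.05 for Vegfa, -0.19 for Pdk1 and -0.26 for Bnip3.

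Other genes with a fibrinogen-like domain were compared because they share that domain with the family. Of 13 listed, 4 were in the counts and 3 were tested, of which 0 were called higher and 2 lower. That is 66.7% called, of only 3 genes, against 17.7% of all tested genes. Tnxb, which encodes tenascin X, fell from 107 ± 15.3 to 30.2 ± 4.12 CPM, a log2 fold change of -1.82 (adjusted p = 9.50e-09). Tnc, which encodes tenascin C, fell from 310 ± 27.7 to 169 ± 11.4 CPM, a log2 fold change of -0.87 (adjusted p = 8.19e-08). Both have the direction opposite to Angptl7 and Angptl6, and the same as Angpt1, at -0.54 (SE 0.27). The remaining tested gene, Mfap4, was also lower but not called, at -0.77 (adjusted p = 0.0558 by the same edgeR test). With 3 of 13 listed genes tested, nothing is read from this about the list as a whole.

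**Figure D4:**
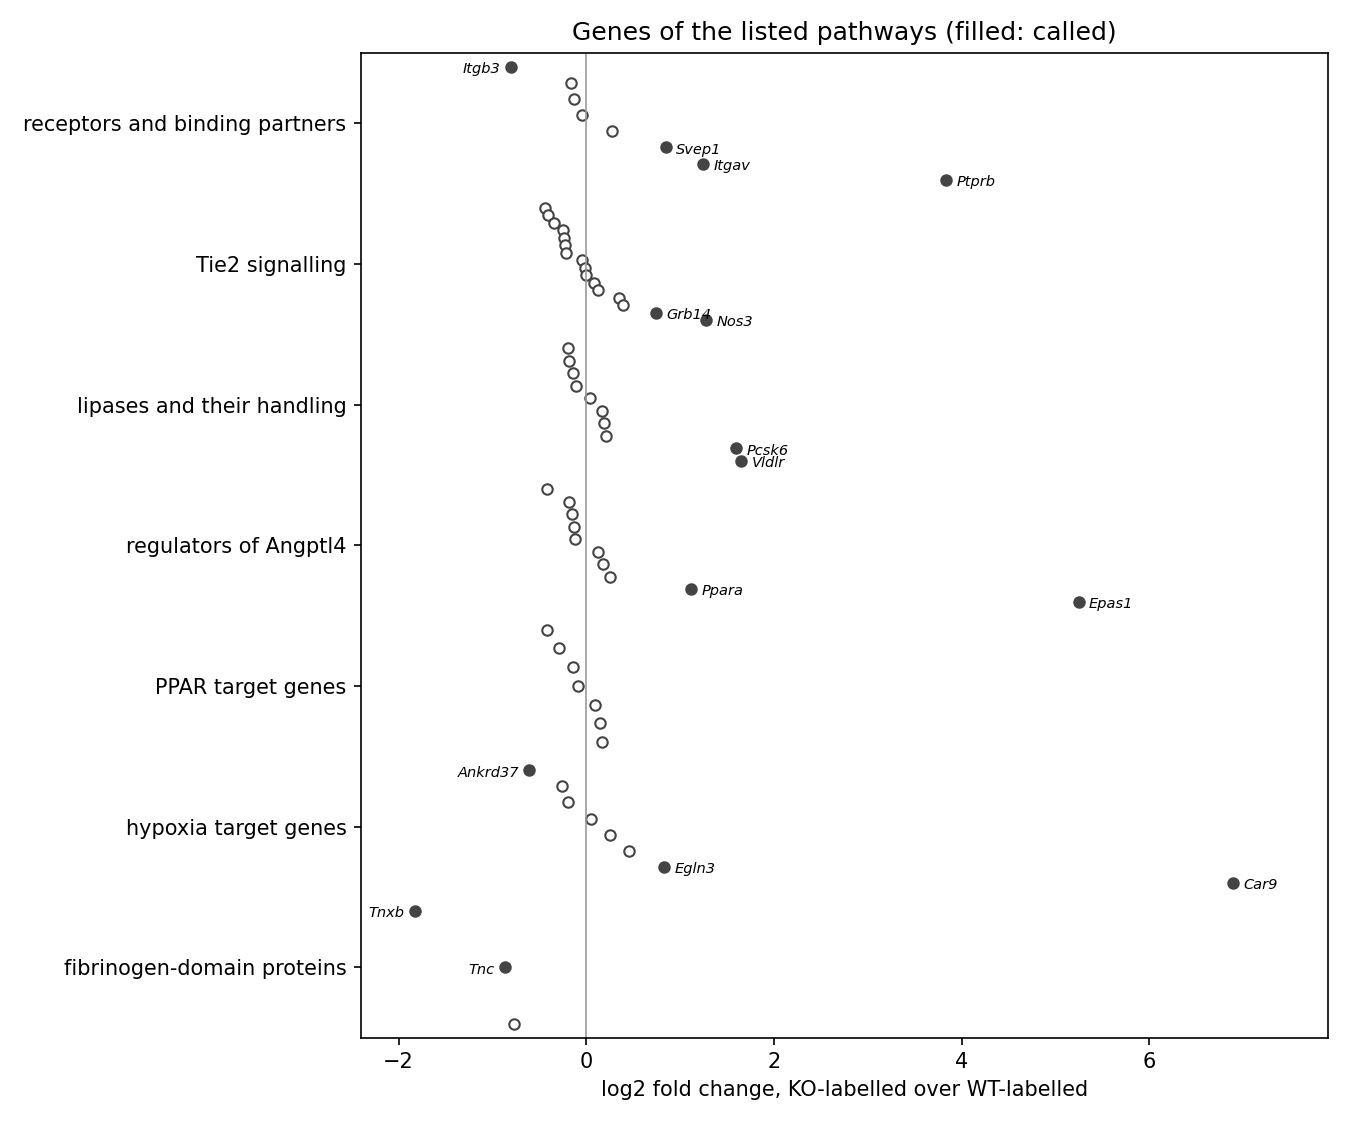
The log2 fold change, KO-labelled over WT-labelled, of each tested gene of the 7 lists, filled where the gene was called by edgeR's quasi-likelihood test at an adjusted p under 0.05 and at least 1.5-fold. Called genes lie between Tnxb at -1.82 and Car9 at 6.89, a fitted value at 0 to 1 counts in the WT-labelled libraries, and the PPAR target genes all lie between -0.41 and 0.17.

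Genes whose levels over the 6 libraries were most like those of Angptl7 were ranked by the Euclidean distance between log2 CPM profiles, each centred on its own mean, among 14288 tested genes. The 5 nearest were Gpm6a, a neuronal membrane glycoprotein, at a distance of 0.453, Col4a3 at 1.02, Gng2, a G protein subunit, at 1.13, Col4a4 at 1.16 and Zfp775, a zinc finger gene, at 1.18. The median distance over all these genes was 8.25. This distance depends mostly on the size of the difference between the groups, on which the family was selected. The ranking is therefore a description of genes with a difference of like size. All 5 were near the floor in the WT-labelled libraries, where they had 0 to 6 counts per library on a log scale with an offset of 0.5 counts. Gpm6a had 1, 3 and 2 counts in the WT-labelled libraries and 267, 377 and 268 in the KO-labelled ones, at least 88.5-fold higher against 3 counts. Col4a3 was at least 75.2-fold higher, Gng2 at least 52.7-fold and Zfp775 at least 30.7-fold. Col4a4, with 4, 4 and 6 counts against 398, 512 and 435, had a log2 fold change of 6.37, a size set by the few WT-labelled counts. Col4a3 and Col4a4 encode chains of basement membrane collagen and are annotated side by side on chromosome 1.

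Markers of other cell types were read beside the family. Mesothelial markers were higher in the KO-labelled libraries, as was Angptl7, and 5 of 6 listed genes were in the counts. Of all tested genes, 11.6% were called higher. The summed level of the 5 markers was 22.6 to 25.6 CPM in the WT-labelled libraries and 291 to 293 in the KO-labelled ones. Msln, which encodes mesothelin, had 77, 91 and 62 counts against 5949, 6904 and 5392 and rose with a log2 fold change of 6.12 (adjusted p = 3.75e-15 by edgeR's quasi-likelihood test). The log2 fold change was 4.62 for Lrrn4, 4.40 for Upk1b, 1.90 for Upk3b and 1.83 for Wt1, all called higher by the same test, while Krt19 has no row. None of the 5 was at 0 in any group. The part of these cells or genes in the Angptl7 difference was not tested.

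Endothelial markers, which bear on Ptprb, Nos3 and the angiopoietins, had 4 of 12 genes in the counts, with a summed level of 2.81 to 4.39 CPM in the WT-labelled libraries and 7.45 to 8.18 in the KO-labelled ones. The defining genes Pecam1, Cdh5, Kdr, Tek and Tie1 have no row, and of the genes measured Flt1 and Egfl7 were called higher and Esam and Vwf were not called. Epithelial markers had 3 of 6 genes in the counts, at a sum of 4.29 to 5.23 CPM against 23.9 to 24.4 CPM, most of it Krt7, and Epcam has no row. Of 6 macrophage markers 4 were in the counts, at 39.7 to 46.0 CPM against 38.8 to 40.4 CPM, and none was called. Lyz2 makes up most of this macrophage sum, at means of 41.1 and 36.6 CPM, and Ptprc and Adgre1 have no row. Pericyte and smooth muscle markers, with 3 of 8 in the counts, summed to 1820 to 1981 CPM in the WT-labelled libraries and 1887 to 1973 in the KO-labelled ones. Nearly all of that sum is Acta2, at means of 1893 and 1903 CPM. Mcam, an adhesion molecule, was called higher, at 3.56 ± 0.343 against 20.4 ± 1.32 CPM, a log2 fold change of 2.52 (adjusted p = 9.22e-11), and Notch3 and Acta2 were not called. Of 6 adipocyte markers, a cell type known for Angptl4, the counts held Pparg only. The part of endothelial, epithelial and pericyte genes in the members' differences was not tested.

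**Figure D5:**
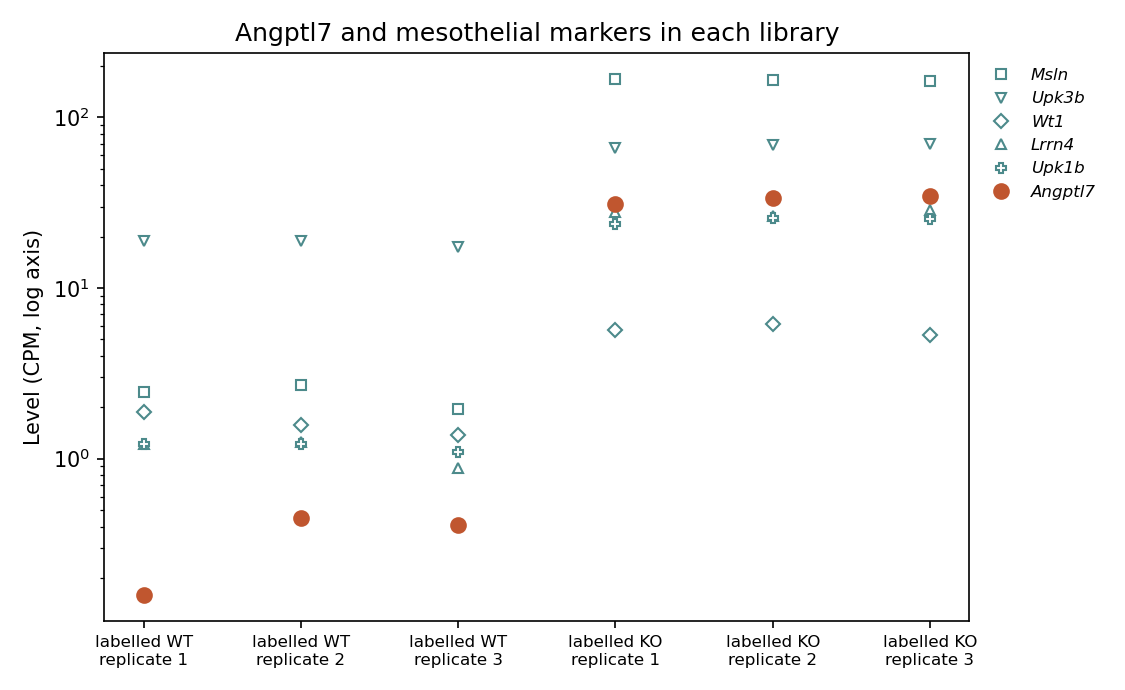
Level in CPM (log axis) of Angptl7 (filled circles) and of the 5 measured mesothelial markers (open symbols) in each library. All 6 genes are higher in every KO-labelled library than in any WT-labelled one, and Msln reaches a mean of 166 CPM from 2.37 CPM.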

How the data were processed

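The authors deposited raw counts of reads per gene, together with log2 values of CPM made by voom in limma. The submitters' processing notes name STAR 2.7.2b, featureCounts, limma and GRCm38.p6, without roles, and the strand setting of the counting is not given in the sources used here. The counts are the main data, and the deposited log2 values served as an alternative. Counts were normalized by TMM, filtered with filterByExpr and tested with the quasi-likelihood F test of edgeR 4.0.16 in R 4.3.3, with Benjamini-Hochberg adjustment over 14289 genes. Standard errors were taken from the log2 fold change and its F statistic. No pair of libraries of a group agreed within sampling noise (chi-square per degree of freedom from 2.47 to 7.53), so none was taken as a copy of another. Each was counted as a replicate, numbered in accession order. This check does not show that the wells came from separately derived lines. Totals of 31728420 to 41035931 counts set the precision, and floors cover counting error only.

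Levels per kilobase use exon lengths of GENCODE M21, matched by Ensembl identifier for 14822 of 14831 genes. The members and lists were chosen with earlier results of these data known. Named from each list were up to 3 called genes in each direction without overlap between the groups or, where none was called, the 2 with the most counts, and also all genes that hold a member, the 5 genes most like the member with the largest change, and Gli2 and Gli3. Itga1, Itga5, Itgb1, Itgb5, Akt1, Akt2, Lpl, Ppard, Pparg, Hif1a, Ndrg1, Slc2a1, Vegfa, Pdk1, Bnip3, Mfap4 and the markers are named outside that rule, after their values were seen. Alternatives were scaling by RLE, the upper quartile or total counts, no filter, at least 10 counts in every library, DESeq2 1.42.0, limma 3.58.1, leaving out each library, calls by adjusted p alone, and the length of the longest transcript. The edgeR step was tested on simulated data.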

Additional observations from a re-analysis of the deposited data

How the results depend on the processing

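The 7 members kept their direction in every alternative that gave a value except Angpt4, whose log2 fold change lay between -0.06 and 0.11. The range was -0.67 to -0.32 for Angpt1, 0.11 to 0.54 for Angpt2, 0.14 to 0.24 for Angptl2, 0.53 to 0.64 for Angptl4, 1.88 to 2.11 for Angptl6 and 6.26 to 6.85 for Angptl7. Angpt2 and Angptl7 have a library below 10 counts and gave no value under that filter.

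By adjusted p alone, 8391 of the 14289 tested genes were called. The lists held 7 calls of 8 tested genes for receptors and binding partners, and 12 of 16 for Tie2 signalling. Lipases held 7 of 10, regulators of Angptl4 9 of 10, PPAR targets 6 of 7 and hypoxia targets 7 of 8. The genes that hold a member held 2 of 4. Calling by adjusted p alone leaves out the fold limit. With at least 10 counts in every library, Tie2 signalling, regulators of Angptl4 and hypoxia targets held 1 call each, since fewer genes were tested. Leaving out 1 library at a time gave 2501 to 2618 called genes, 1 to 2 calls for Tie2 signalling, 1 to 3 for hypoxia targets and 2 to 4 for fibrinogen-domain proteins, where 4 came without the first library labelled KO. Tie2 signalling fell to 1 call without that library, and hypoxia targets fell to 1 without the first library labelled WT and without the second labelled KO. Ralgps1 changed sign, to 0.022 with upper-quartile scaling and to 0.0089 without the second library labelled KO, within a range of -0.074 to 0.0089 over the libraries left out. The cause was not tested. Of 453 values of other named genes, 440 kept their direction and side of the threshold and 11 were weaker. Total-count scaling moved the median over all genes by 0.03 on the log2 scale. No paired analysis was possible because the labels give no replicate numbers. Angpt1 and Angpt2, at 6 to 25 counts per library, are limited by depth.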
